A study of Mus musculus with 83 samples.

Results

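The 9 genes described here encode 6 enzymes of the citric acid cycle and pyruvate carboxylase, the enzyme that feeds pyruvate into it as oxaloacetate. They were taken by symbol: Cs, Idh3a, Idh3b, Idh3g, Ogdh, Sdha, Fh1 and Mdh2 for the cycle, and Pcx for pyruvate carboxylase. All 9 had a value in each culture table, out of 11144 genes listed there, and all 9 had at least 1 RefSeq transcript in the brown adipose tissue table. The series asked how MLL3 and MLL4, 2 related histone methyltransferases, act on enhancers during brown fat cell formation, and holds 83 samples, of which 5 RNA libraries were used. The 4 culture libraries came from brown preadipocytes of C57BL/6J background, prepared from the interscapular brown fat of newborn mice homozygous for a floxed Pparg allele and immortalized by retroviral SV40 large T antigen. All 4 thus share the floxed alleles and the viral oncogene, and the labels name no Cre for them. They were sampled while proliferating (day -3), at confluence (day 0), as immature adipocytes (day 2) and as mature adipocytes (day 7). From day 0 the medium held 0.02 µM insulin, 1 nM T3 (a thyroid hormone), 0.5 mM IBMX (a phosphodiesterase inhibitor), 2 µg/ml dexamethasone (a glucocorticoid) and 0.125 mM indomethacin, and later insulin and T3 alone. The tissue library was made from the interscapular brown fat of C57BL/6J mice at 16 weeks of age, and how many animals it holds is unknown here.

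The citric acid cycle runs in the mitochondrial matrix. Citrate synthase joins acetyl groups, from fatty acids or from pyruvate, to oxaloacetate, and the steps that follow release carbon dioxide, load electrons on carriers for the respiratory chain and restore oxaloacetate. Pyruvate carboxylase, which carries biotin, makes new oxaloacetate and so replaces cycle intermediates that are drawn off, for example as citrate for fatty acid synthesis in fat cells. Brown fat is dense in mitochondria and burns fuel to make heat, and the cycle supplies its respiratory chain with electrons.

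Each group is 1 library, so no difference below has a replicate check and none has a p-value. Culture values are FPKM, fragments scaled for transcript length and library, and levels of different genes are set side by side on that scale. Whether the values of single genes are too low or too high was not tested. Gapdh, a glycolysis gene, stood at 14.2, 6.18, 3.63 and 17.8 FPKM at days -3, 0, 2 and 7. Aldoa of the same pathway stood at 363, 365, 283 and 1985 FPKM. On day -3 Hadhb stood at 1.90 FPKM beside Hadha at 59.5, both of fatty acid oxidation. Orders and ratios of levels between genes carry that uncertainty. Differences are of log2(FPKM + 1), and a gene was called higher or lower from a difference of 1 upward, which is 2-fold on that scale, provided that the higher library had at least 1 FPKM. The libraries are bulk RNA, in which more cells of a type and more RNA per cell cannot be told apart. Markers of fat cells showed the course of the culture: 11 common adipocyte genes summed to 81.1, 153, 7399 and 7802 FPKM at days -3, 0, 2 and 7. Fabp4 and Lpl carry most of the sums of days 2 and 7. By gene, 11 of 11 were higher from day 0 to day 2 (6.18% of all genes) and 6 of 11 from day 2 to day 7 (9.62%). At the latter step none was lower (5.14% of all genes), and the median difference was 1.45, against 0.02 over all genes compared. Of 10 brown fat markers, 7 were listed in culture, with sums of 0.904, 2.73, 16.9 and 239 FPKM. Kcnk3 carries most of the day 2 sum, at 13.6 FPKM, and Cox7a1 and Kcnk3 most of the day 7 sum, at 132 and 87.9 FPKM. Cidea, Cox8b, Prdm16 and Elovl3 were at 8.81, 4.38, 2.54 and 1.91 FPKM on day 7. Ucp1, the heat-making protein of brown fat, was at 0 on days -3 and 0, at 0.036 on day 2 and at 1.22 FPKM on day 7. Read depth could not be recovered from the culture values and is unknown.

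Cs, citrate synthase, which opens the cycle, stood at 155 FPKM on day -3, 91.1 on day 0, 127 on day 2 and 381 on day 7. It was lowest at confluence and highest in mature adipocytes, at 3.01 times its day 2 level. Csl, a gene named as citrate synthase like, had 22.7, 12.4, 22.4 and 59.4 FPKM in the same order. How reads that match both genes were split between them is unknown here, so the values of both genes carry that uncertainty.

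The 3 subunits of NAD-linked isocitrate dehydrogenase followed 2 different courses. Idh3a, the catalytic subunit, stood at 117 FPKM on day -3, 41.6 on day 0, 271 on day 2 and 242 on day 7. Idh3b, a partner subunit, stood at 90.6, 96.3, 95.2 and 285 FPKM. Idh3g, a regulatory subunit, stood at 58.1, 65.9, 90.5 and 217 FPKM. Idh3a was thus lower at confluence and already near its final level at day 2, whereas the other 2 subunits had their largest difference between days 2 and 7.

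Ogdh, the first component of the 2-oxoglutarate dehydrogenase complex, stood at 55.3, 52.0, 82.7 and 90.5 FPKM. Sdha, the flavin subunit of succinate dehydrogenase, which also serves the respiratory chain as part of complex II, stood at 95.6, 111, 125 and 284 FPKM. Fh1, fumarase, stood at 70.6, 52.2, 60.8 and 110.0 FPKM. Of these 3 genes Sdha had the widest range, with its highest value on day 7. Mdh2, the mitochondrial malate dehydrogenase that closes the cycle, stood at 344, 202, 303 and 465 FPKM. It had the highest FPKM of the 9 in every culture library.

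Pcx stood at 2.91 FPKM on day -3, 8.75 on day 0, 132 on day 2 and 382 on day 7. It was the lowest of the 9 genes in both libraries taken before induction and level with Cs, below Mdh2 alone, on day 7, at 131 times its level on day -3. Among all genes of the culture tables it lay at percentile 21.7, 37.7, 97.2 and 99.4 in the order of the days. The 8 cycle genes together summed to 987, 712, 1154 and 2075 FPKM, which was 0.268%, 0.223%, 0.368% and 0.619% of all FPKM in the respective library.

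**Figure D1:**
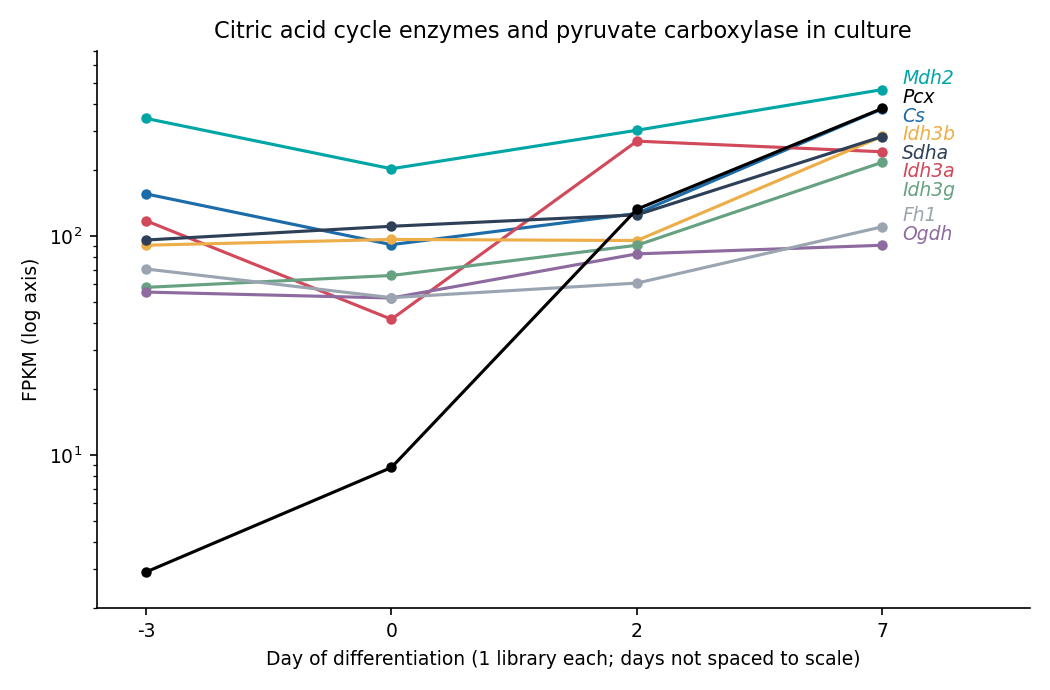
FPKM (log axis) of the 9 genes at days -3, 0, 2 and 7, 1 library a day, each line a gene. Pcx starts at 2.91 FPKM and meets Cs at about 382 FPKM on day 7, while Idh3a dips to 41.6 FPKM on day 0.

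The promoter sequences of the 5 genes that were higher between days 2 and 7 are shown here because they moved in the same direction at that step. The sequences are from RefSeq on build GRCm38.p6, cover the 250 bases before the transcript start, and run 5′ to 3′ on the strand of the gene. Windows lie at chr19:4510222-4510471, plus strand and chr19:4594069-4594318, plus strand for the 2 starts of Pcx, at chr10:128337477-128337726, plus strand for Cs, at chr2:130284452-130284701, minus strand for Idh3b, at chrX:73786898-73787147, minus strand for Idh3g and at chr13:74350241-74350490, minus strand for Sdha. Capitals mark the matches to the 6 motifs listed after the sequences.
Pcx start 1: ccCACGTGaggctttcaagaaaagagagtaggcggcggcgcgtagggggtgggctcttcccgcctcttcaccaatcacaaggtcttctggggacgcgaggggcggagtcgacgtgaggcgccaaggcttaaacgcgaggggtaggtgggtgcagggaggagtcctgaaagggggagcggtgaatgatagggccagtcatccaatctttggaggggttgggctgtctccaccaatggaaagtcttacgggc
Pcx start 2: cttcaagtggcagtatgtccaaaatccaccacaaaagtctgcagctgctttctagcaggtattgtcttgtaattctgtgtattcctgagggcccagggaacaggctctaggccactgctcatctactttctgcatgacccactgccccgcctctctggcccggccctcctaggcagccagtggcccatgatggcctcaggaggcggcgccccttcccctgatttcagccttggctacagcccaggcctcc
Cs: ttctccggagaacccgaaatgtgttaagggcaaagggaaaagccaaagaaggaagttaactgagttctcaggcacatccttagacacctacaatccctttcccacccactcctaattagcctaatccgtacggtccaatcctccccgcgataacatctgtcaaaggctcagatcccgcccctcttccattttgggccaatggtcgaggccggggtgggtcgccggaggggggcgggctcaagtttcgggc
Idh3b: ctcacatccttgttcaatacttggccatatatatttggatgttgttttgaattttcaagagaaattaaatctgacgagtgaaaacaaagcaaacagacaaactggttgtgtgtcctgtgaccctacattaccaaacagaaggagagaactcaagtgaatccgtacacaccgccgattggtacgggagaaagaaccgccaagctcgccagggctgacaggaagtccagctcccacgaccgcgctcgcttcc
Idh3g: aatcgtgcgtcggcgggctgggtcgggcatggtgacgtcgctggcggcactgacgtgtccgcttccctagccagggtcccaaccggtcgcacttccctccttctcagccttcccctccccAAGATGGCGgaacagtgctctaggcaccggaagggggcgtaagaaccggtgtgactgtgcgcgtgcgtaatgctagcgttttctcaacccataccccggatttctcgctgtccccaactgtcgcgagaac
Sdha: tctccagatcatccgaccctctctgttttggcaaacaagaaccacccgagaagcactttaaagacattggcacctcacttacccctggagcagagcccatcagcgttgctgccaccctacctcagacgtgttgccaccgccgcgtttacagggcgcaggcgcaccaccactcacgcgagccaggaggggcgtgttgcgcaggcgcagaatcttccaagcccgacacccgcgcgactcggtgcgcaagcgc

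The 6 short motifs, known from promoters of mitochondrial or hormone-responsive genes, were searched on both strands of all 32851 promoters of the table, in the same 250 bases, and none is a part of another. The E-box CACGTG was found in start 1 of Pcx, 248 to 243 bases before the start, and in 6.02% of all promoters. The YY1 core AAGATGGCG was found in Idh3g, 130 to 122 bases before the start, and in 0.606% of all promoters. No match was found in start 2 of Pcx or in Cs, Idh3b and Sdha. Of the other members, Mdh2 held the cyclic AMP response element TGACGTCA, present in 1.55% of all promoters, 127 to 120 bases before its start. Ogdh has 6 listed starts whose windows partly overlap: starts 1 to 3 hold the same TGACGTCA, starts 4 to 6 an E-box, and starts 5 and 6 the NRF1 core CGCATGCG, present in 1.55% of all promoters. The GABPA core CCGGAAGTG (1.44% of all promoters) and the ERR-type half-site TCAAGGTCA (0.387%) were found in none of the 14 promoters of the 8 members with an entry. GC content was 60.8% in start 1 of Pcx with 16 CpG and 58% in start 2 with 4 CpG, against a median of 52.4% over all promoters.

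From proliferation to confluence (day -3 to day 0), Pcx was higher and Idh3a lower, and the other 7 genes stayed within 2-fold. Pcx differed by 1.32 on the log2 scale and Idh3a by -1.47. With a pseudocount of 5 in place of 1, Pcx differed by 0.80 and 0 members were called higher. Cs and Mdh2 each differed by -0.76, short of the threshold. The count was 1 of 9 higher and 1 of 9 lower, where 11.3% of the 10602 genes compared were called higher and 5.43% lower. The median difference of the 9 was -0.09, against 0.06 over all genes compared. With the libraries scaled to a common total of FPKM, 80.6% of all called genes at this step were higher rather than 67.6%, and the median of all genes moved from 0.06 to 0.25.

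In the first 2 days after induction (day 0 to day 2), Pcx and Idh3a stood out from the other cycle genes. Pcx was 15.1 times its day 0 level, a log2 difference of 3.77, and 47 of the 10717 genes compared, Pcx included, differed upward by at least as much. Idh3a was 6.51 times its day 0 level, a difference of 2.67, and 114 genes differed by at least as much. The other 7 ranged from -0.02 for Idh3b to 0.66 for Ogdh. The count was 2 of 9 higher and 0 of 9 lower, where 6.18% of genes compared were called higher and 10.7% lower. The median of the 9 was 0.47, against -0.01 over all genes compared.

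From immature to mature adipocytes (day 2 to day 7), 5 of 9 genes were higher and none was lower, where 9.62% of the 10666 genes compared were called higher and 5.14% lower. Cs differed by 1.58, Idh3b by 1.57, Pcx by 1.52, Idh3g by 1.25 and Sdha by 1.18. Fh1 at 0.84, Mdh2 at 0.62, Ogdh at 0.13 and Idh3a at -0.16 were within the threshold. The median of the 9 was 1.18, against 0.02 over all genes compared.

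**Figure D2:**
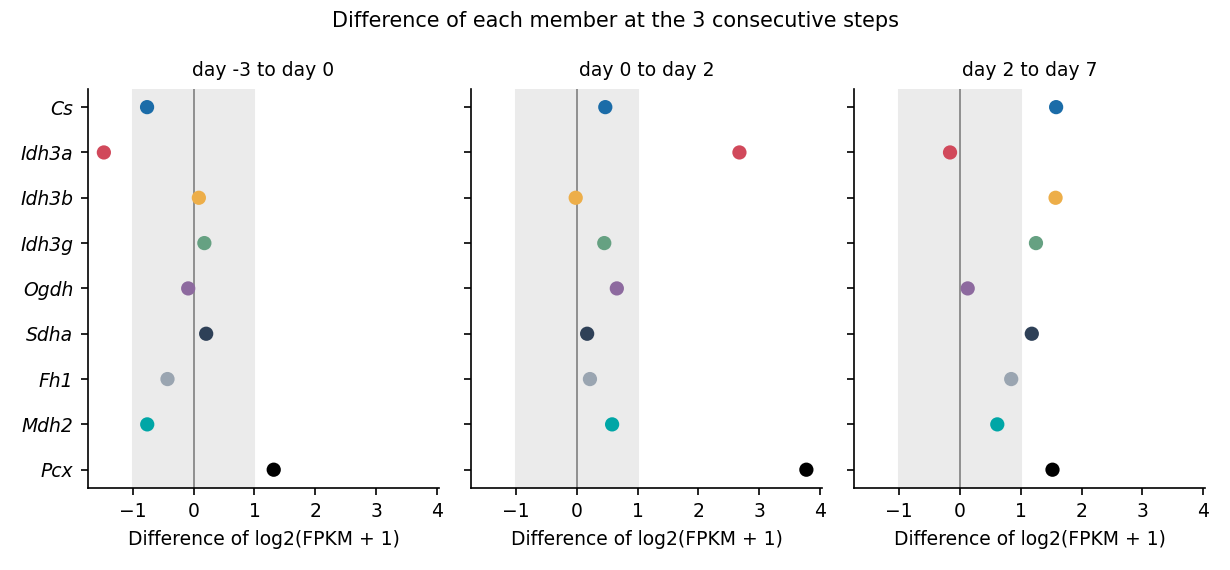
Difference of log2(FPKM + 1) of each of the 9 genes (rows) at the 3 consecutive steps (panels), with the grey band marking differences under 2-fold. Pcx lies to the right of the band in all 3 panels, Idh3a leaves it to the left and then to the right, and 5 genes lie to its right in the last panel.

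Over the whole course (day -3 to day 7), 6 of 9 genes were higher and 0 lower, where 20.3% of the 10828 genes compared were called higher and 14.7% lower. Pcx differed by 6.61, Idh3g by 1.88, Idh3b by 1.64, Sdha by 1.56, Cs by 1.29 and Idh3a by 1.04. Idh3a lies close to the threshold and falls under it, at 0.96, with median-ratio scaling of the libraries. Ogdh at 0.70, Fh1 at 0.63 and Mdh2 at 0.44 were within 2-fold. Only 26 of the 10828 genes, Pcx included, differed upward by at least as much as Pcx.

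Read over the 3 steps together, the 9 genes fell into 4 courses. Cs, Idh3b, Idh3g and Sdha were within 2-fold at both early steps and higher at the last, a course shared by 539 of 11144 genes (4.84%). Pcx was called higher at every step, as were 15 genes in all (0.135%), though its first call is lost with a pseudocount of 5. Idh3a was lower, then higher, then within, a course of 34 genes (0.305%). Ogdh, Fh1 and Mdh2 stayed within 2-fold at each step, as did 7411 genes (66.5%).

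The order of the levels was led by Mdh2 in each culture library, at 2.21 times the next gene, Cs, on day -3 and 1.83 times the next, Sdha, on day 0. On day 2 Idh3a was the next gene after Mdh2, which was 1.12 times its level. Neighbours in the order often lay close: Pcx and Cs on day 7 at a ratio of 1.00, Idh3b and Sdha on day 7 at 1.00, Fh1 and Ogdh on day 0 at 1.00, and Cs and Sdha on day 2 at 1.02. With 1 library a day these neighbours cannot be ordered. From highest to lowest, the 8 cycle genes spanned 6.21, 4.87, 4.99 and 5.14-fold in the order of the days.

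Ratios within a library do not depend on how it was scaled. They do rest on levels of different genes being comparable, which was not tested. Pcx to Cs, the enzyme that makes oxaloacetate from pyruvate against the one that consumes oxaloacetate, was 0.0187 on day -3, 0.0960 on day 0, 1.05 on day 2 and 1.00 on day 7. Pcx was thus far below Cs before induction and level with it from day 2 on. Pcx to Pdha1, which encodes a subunit of pyruvate dehydrogenase, the other route of pyruvate into the cycle, was 0.0413, 0.169, 1.69 and 2.14. Idh3a to the mean of Idh3b and Idh3g was 1.58, 0.513, 2.91 and 0.964. The catalytic subunit was thus below its partners on day 0, above them on day 2 and near them on day 7. Cs to Mdh2 was 0.452, 0.450, 0.417 and 0.818, steady over the first 3 libraries and nearer to equal on day 7.

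**Figure D3:**
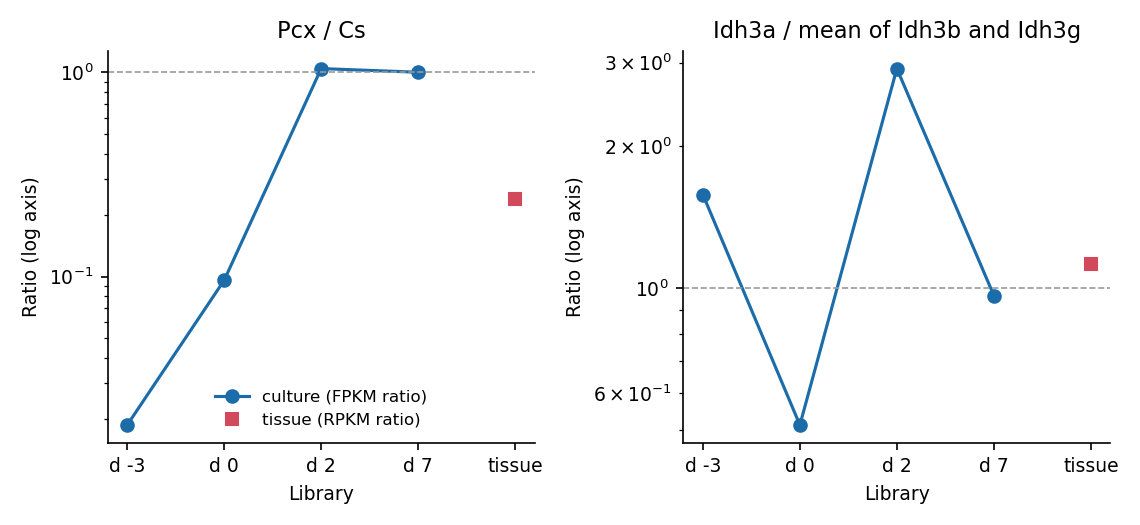
Ratio of Pcx to Cs (left) and of Idh3a to the mean of Idh3b and Idh3g (right) within each library, on log axes, with culture in blue and tissue in red. Pcx to Cs goes from 0.0187 to 1.00 in culture and is 0.239 in tissue, and the Idh3a ratio swings from 0.513 on day 0 to 2.91 on day 2.

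Subunits of one complex were compared by the ratio of the highest to the lowest. For isocitrate dehydrogenase 3 it was 2.02, 2.32, 2.99 and 1.31 in the order of the days, with Idh3a the highest subunit on days -3 and 2 and the lowest on day 0. For 2-oxoglutarate dehydrogenase (Ogdh, Dlst and Dld) it was 2.19, 1.51, 1.20 and 1.61, and Ogdh was the lowest of the 3 on days 2 and 7. For the 4 subunits of succinate dehydrogenase it was 1.32, 1.97, 1.68 and 1.65, with Sdha the highest on every day except day 2, when Sdhc was at 138 FPKM.

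Closeness of profile was measured as the root mean square distance between centred log2(FPKM + 1) values over the 4 culture libraries. Among the members the closest pairs were Idh3b with Sdha at 0.147, Fh1 with Mdh2 at 0.149 and Idh3g with Sdha at 0.153. Idh3a and Idh3b, 2 subunits of one enzyme, were 0.976 apart, and Pcx was at least 2.03 from every other member. Among 7857 genes with at least 10 FPKM in some library, the nearest to Mdh2 was Dlst (0.031), the succinyl-transferring component of 2-oxoglutarate dehydrogenase. The 3 nuclear genes Cox6a1, Cox4i1 and Cox5b, for cytochrome c oxidase subunits, were among the 3 nearest of a member: Cox6a1 (0.084) and Cox4i1 (0.086) to Idh3g, and Cox5b (0.062) to Sdha. Nearer than these were 9430023L20Rik (0.073) to Idh3g, and Ccdc90a (0.023) and 1810013D10Rik (0.051) to Sdha. The nearest to Cs were Cdkn1a (0.063), a cell cycle inhibitor, Csl (0.127) and Hspa9 (0.143), the mitochondrial Hsp70 chaperone. How reads that match both Cs and Csl were split is unknown here, so the closeness of Csl carries that uncertainty. The nearest to Pcx was Cdo1 (0.167), cysteine dioxygenase, at 0.335, 1.49, 36.6 and 124 FPKM, and the nearest to Idh3a was Dlc1 (0.078). For Idh3b it was Zbtb7b (0.062), for Ogdh Tmco1 (0.021) and for Fh1 Rsbn1 (0.039). With 4 points a profile these names rest on the measure used. By Pearson correlation, 0 of the 27 nearest genes (3 for each member, not all named here) were the same.

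Of 10 further cycle genes, all calls after induction were upward. None passed 2-fold from day -3 to day 0, 1 was higher from day 0 to day 2 (6.18% of all genes) and 2 from day 2 to day 7 (9.62%), with none lower. The one of day 0 to day 2 was Dld, the dihydrolipoamide dehydrogenase shared by several complexes, from 41.6 to 91.0 FPKM (1.11). Sdhb, the iron-sulfur subunit of succinate dehydrogenase, was among those of day 2 to day 7, from 82.2 to 172 FPKM (1.06). Over the whole course 6 of 10 were higher (20.3% of all genes), with a list median of 1.22 against 0.07 over all genes. Idh2, the NADP-linked mitochondrial isocitrate dehydrogenase, passed the threshold at no step, at 88.6, 155, 109.9 and 165 FPKM.

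The list for pyruvate entry through pyruvate dehydrogenase holds 9 genes with values, among them Pdp1, Pdp2 and Pdpr of the phosphatase that acts on that enzyme. The number called higher was 0 from day -3 to day 0, 4 from day 0 to day 2 and 5 from day 2 to day 7. None was lower at any of the 3 steps. The 5 include Pdpr (1.17) and Dlat, which lay on the threshold (1.00). Over all genes compared, 11.3%, 6.18% and 9.62% were called higher at these steps and 5.43%, 10.7% and 5.14% lower. Brp44, a subunit of the mitochondrial pyruvate carrier listed under its older symbol, went from 28.7 to 106 FPKM between days 0 and 2 (1.85). Pdhb, the beta subunit of the first pyruvate dehydrogenase component, went from 53.7 to 191 FPKM between days 2 and 7 (1.81). The 4 pyruvate dehydrogenase kinases, which switch that enzyme off, took different courses. Pdk1 stood at 10.2, 32.4, 20.4 and 239 FPKM and Pdk4 at 8.61, 2.90, 26.0 and 64.0 FPKM, whereas Pdk3 stood at 32.6, 37.2, 12.9 and 13.6 FPKM.

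Among 9 genes that handle biotin or encode other biotin carboxylases, 4, 3 and 3 were higher at the 3 consecutive steps and none was lower. The shares of all genes compared were 11.3%, 6.18% and 9.62% higher and 5.43%, 10.7% and 5.14% lower. Hlcs, the ligase that attaches biotin to carboxylases, stood at 1.63, 2.50, 8.16 and 3.97 FPKM, with its highest value on day 2. Acacb, an acetyl-CoA carboxylase, stood at 0.174, 1.74, 1.52 and 45.6 FPKM. None of these 9 genes reached the 382 FPKM of Pcx on day 7, the highest being Acaca at 78.3. Of genes that fill or drain the cycle by other routes, 14 were compared at each of the first 2 steps. From day -3 to day 0, 4 were higher (11.3% of all genes) and 0 lower (5.43%). From day 0 to day 2, 3 were higher (6.18%) and 1 lower (10.7%). From day 2 to day 7, 3 of 15 were higher (9.62%) and 0 lower (5.14%). Over the whole course the split was 9 higher (20.3% of all genes) and 4 lower (14.7%) of 15. Pcca and Pccb count in both this list and that of biotin, and both were higher from day -3 to day 0 (1.17 and 1.62). Slc25a13, a mitochondrial aspartate and glutamate carrier, was among the lower ones, at 13.0, 7.38, 1.49 and 0.915 FPKM.

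Of 6 cytosolic partners of the cycle enzymes, 1, 2 and 1 were higher at the 3 consecutive steps and none was lower. Beside them, 11.3%, 6.18% and 9.62% of all genes compared were called higher and 5.43%, 10.7% and 5.14% lower. Idh1, the cytosolic isocitrate dehydrogenase, stood at 13.4, 57.0, 137 and 194 FPKM. Mdh1, the cytosolic malate dehydrogenase, stood at 74.0, 69.8, 131 and 259 FPKM. Idh1 thus lay 3.75 log2 units higher on day 7 than on day -3. Of 3 assembly factors of succinate dehydrogenase with values, 1 was higher from day 0 to day 2 (Sdhaf1, from 4.15 to 11.9 FPKM) and none changed past the threshold at the other steps.

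Regulators of mitochondrial genes did not share one course. Ppargc1b, a coactivator of mitochondrial genes, stood at 0.924, 0.761, 12.7 and 42.3 FPKM, and Esrra, the receptor ERR alpha, at 19.4, 13.3, 24.1 and 45.6 FPKM. Pprc1, a related coactivator, went the other way, at 83.0, 35.2, 35.7 and 15.7 FPKM. Pparg, the fat cell master regulator, stood at 16.8, 7.46, 47.1 and 185 FPKM. Nrf1, Gabpa, Gabpb1, Gabpb2, Tfam, Tfb2m and Yy1 were each within 2-fold over the whole course, and Tfb1m and Ppara were higher by 1.44 and 2.82. Of the 13 regulators with values, 5 were higher (20.3% of all genes) and 1 lower (14.7%) over the whole course. Ppargc1a, Esrrb and Esrrg, also on the list, had no culture value and stood at 15.2, 0.401 and 4.96 RPKM in tissue.

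Neighbouring pathways place the cycle genes. Over all genes compared, 11.3%, 6.18% and 9.62% were called higher and 5.43%, 10.7% and 5.14% lower at the 3 consecutive steps. The medians over all genes were 0.06, -0.01 and 0.02. For the respiratory chain and ATP synthase, 0, 1 and 9 of 29 genes were higher and 1, 0 and 0 lower at the 3 consecutive steps, with medians of -0.13, 0.40 and 0.92, beside -0.09, 0.47 and 1.18 for the 9 members. For fatty acid oxidation, 2, 3 and 6 of 18 genes were higher and 0, 0 and 1 lower, with medians of 0.64, 0.53 and 0.80. Glycolysis had medians of 0.01, -0.63 and 2.18, with 1, 1 and 13 of 15 genes higher and 3, 5 and 0 lower. Fatty acid synthesis had medians of 0.17, -0.53 and 1.83, with 4 higher and 0 lower of 9 genes, then 0 and 2 of 9, then 8 and 0 of 10. At the step from day 0 to day 2 the median of the cycle genes and that of glycolysis thus had opposite signs.

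**Figure D4:**
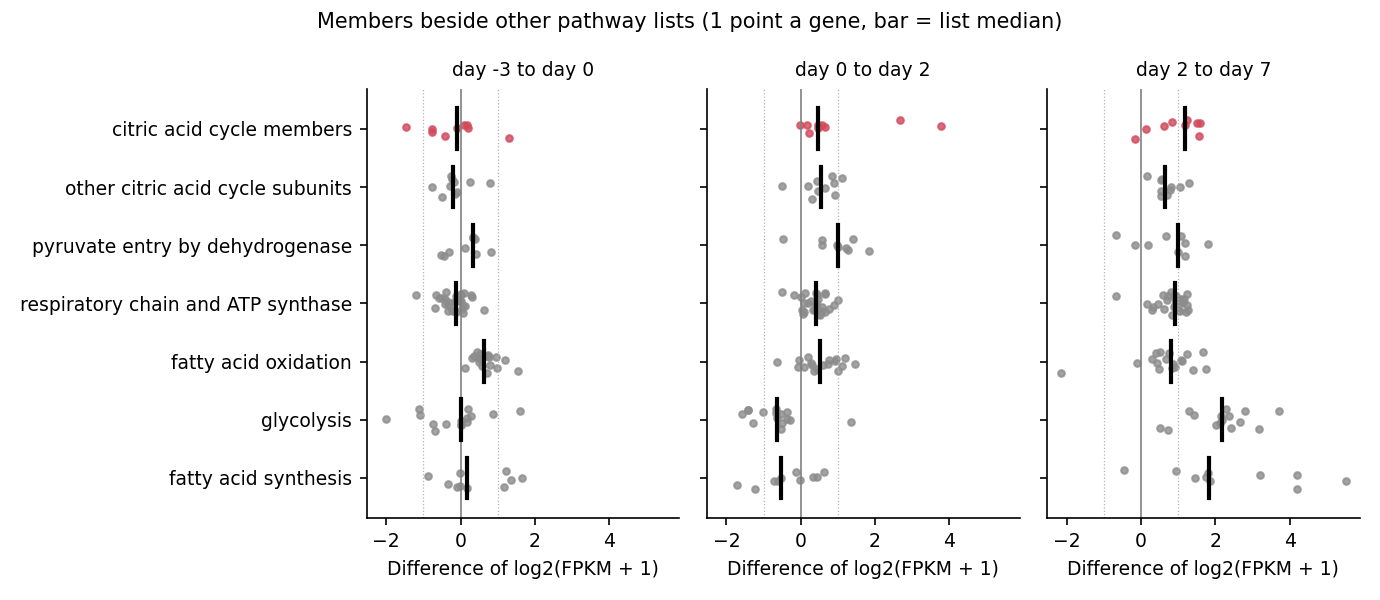
Difference of log2(FPKM + 1) at the 3 consecutive steps (panels) for the 9 members (red) and 6 other lists (grey), 1 point a gene and a black bar for the list median, with dotted lines at 2-fold. The members' bar moves from -0.09 to 0.47 to 1.18, and the glycolysis bar lies at -0.63 in the middle panel and 2.18 in the last.

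The values of adult brown adipose tissue are RPKM, a read count per length and library size, made separately from the culture FPKM, so levels are set side by side and only ranks and ratios within a library are compared. Cs stood at 561 RPKM, Sdha at 502, Idh3a at 409, Idh3b at 369.7, Idh3g at 359, Mdh2 at 312, Ogdh at 303, Fh1 at 197 and Pcx at 134. The order differed from that on day 7: Mdh2 led in culture and was sixth in tissue, and Pcx, level with Cs after Mdh2 in culture, was last in tissue. Ogdh and Pcx have 5 and 2 transcripts in the table, at 297 to 303 and 133 to 134 RPKM, and the highest was used for each gene. The members held an estimated 718 to 2999 reads per kb of transcript.

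Over the 10472 genes that reached 1 FPKM on day 7 or 1 RPKM in tissue, 7 of 9 members ranked higher in tissue than on day 7, where 50.5% of all genes did. Ogdh moved most, from percentile 94.3 to 99.2, a difference of 4.98 points, and Fh1 next, from 95.5 to 98.7. Pcx moved from 99.3 to 98.1 and Mdh2 from 99.5 to 99.3, the 2 members that ranked lower in tissue. All 9 lay above percentile 94 in both, so little room was left to rank higher in tissue. For that reason the size of these shifts cannot be judged against all genes, of which 7706 of 10472 moved at least as far as Ogdh in either direction. The median shift was 0.65 points, against 0.13 over all genes.

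**Figure D5:**
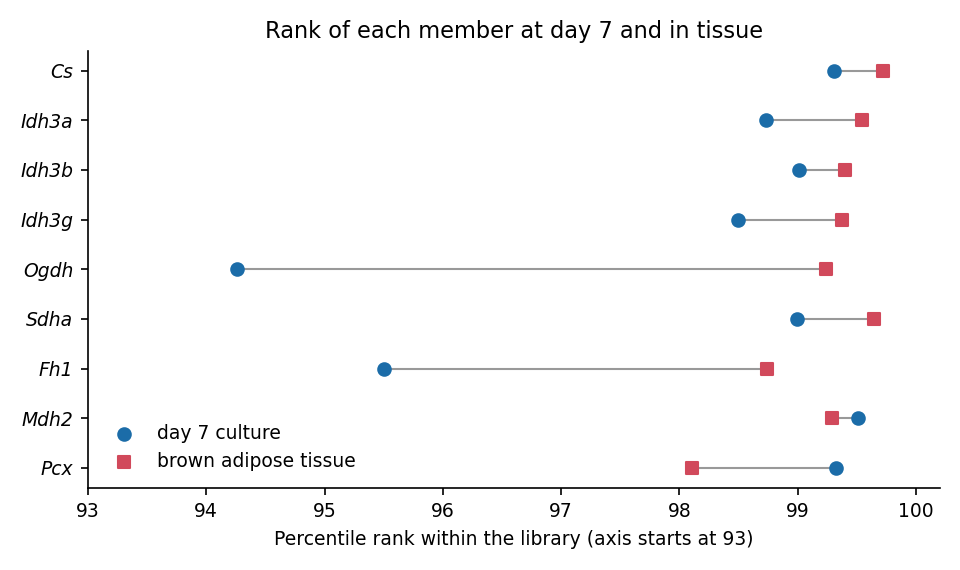
Percentile rank of each of the 9 genes among 10472 genes within the day 7 culture library (blue circles) and within the tissue library (red squares), on an axis that starts at 93. Ogdh and Fh1 have the longest lines, and Pcx and Mdh2 are the pair whose tissue rank lies to the left.

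The ratio of Pcx to Cs was 0.239 in tissue, between the culture values of day 0 and day 2, and Pcx to Pdha1 was 0.212. Tissue ratios take the highest transcript of each gene, whereas culture values are by gene, so the 2 kinds of ratio are not fully alike. Pcx has 2 transcripts, at 133 and 134 RPKM, and the ratios were not computed with sums over transcripts, which would raise those of Pcx. Idh3a to the mean of its partner subunits was 1.12, and the 3 subunits lay within 1.14-fold of each other. Cs to Mdh2 was 1.80 in tissue, above all 4 culture values. Sdha was 2.61 times the lowest subunit of its complex, Sdhc. The tissue also held RNA of other cells: all 12 skeletal muscle markers were present at 17.1 to 534 RPKM, with a sum of 1984 RPKM, while 3 of these 12 were listed in culture with sums of 2.03 to 67.3 FPKM. Mb, myoglobin, makes up 65.1 of the 67.3 FPKM on day 7, when Acta1 and Mylpf were at 1.14 and 0.989 FPKM. Muscle is itself rich in cycle enzymes, and its part in the tissue values of the members was not tested. The 7 endothelial markers lay at 8.94 to 51.4 RPKM, the 7 macrophage symbols with a value at 0.360 to 19.6 and the 4 red cell genes with a value at 5.29 to 88.0, and none of the listed markers of these 4 types was at 0 in tissue. Ucp1 was at 1015 RPKM in tissue.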

How the data were processed

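Poly(A) RNA of 4 brown preadipocyte cultures and 1 brown adipose tissue sample was sequenced, with 1 library a group, and samples were grouped by title. The culture values are gene-level FPKM as the authors deposited them, by symbol, and the tissue values are RPKM by RefSeq transcript, as the authors deposited them. The submitters' processing notes name CASAVA 1.8.2, SICER, TopHat2 2.0.10, Cufflinks 1.0.3 and build mm9; which of them made which file is unknown here. Every culture gene reached at least 1.00 FPKM in some library. A gene missing from the tables may have been below that level throughout or listed under another symbol, and which of these holds is unknown here.

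Differences of log2(FPKM + 1) were computed over all genes, with a pseudocount of 1, and called at 1 or more when the larger value was at least 1 FPKM. The scale understates differences of genes with low values. There is no test, since each group has 1 library. Tissue transcripts were matched by accession to a RefSeq table of GRCm38.p6 (97.8% matched 1 symbol). All 31 single-transcript chemosensory receptor genes up to 1200 bases held whole reads in tissue (tolerance 0.01) at 0.187 RPKM for a read on 1 kb, which puts 3 reads at 0.561 RPKM. In culture at most 4.65% of low genes shared 1 ratio, so depth was not recovered. Other lists were named by the 2 genes with the largest difference at each consecutive step, all regulators with values, and the 3 genes nearest each member. Sdhc, Acaca, Pck1 and Ucp1 were chosen after their values were seen, and some genes that the rule takes are left out. The members and lists were chosen with earlier results of these data known. Alternatives were other pseudocounts, scalings, filters and folds, the sum or mean over a gene's tissue transcripts, all genes with a value in both tables, and ratios of FPKM + 1. The rules were tested on simulated data, and work was done in Python 3.11.15 with pandas 2.3.3, numpy 2.4.6 and matplotlib 3.10.9. The 3T3-L1 input DNA was not used here, and the other samples were not analysed here.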

Additional observations from a re-analysis of the deposited data

How the results depend on the processing

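Of the 36 step differences of the members, all 36 kept their side of the 2-fold threshold with a pseudocount of 0.1, with libraries scaled to a common total of FPKM and without the filter on low values, and 35 of 36 did so with a pseudocount of 5 and with median-ratio scaling. With a pseudocount of 5, Pcx differed by 0.80 from day -3 to day 0, so 0 members were called higher at that step, and with median-ratio scaling Idh3a differed by 0.96 over the whole course. A 1.5-fold rule kept 29 of 36 and added 7 calls, so that 3 members, Cs and Mdh2 besides Idh3a, were lower from day -3 to day 0. No member's direction was reversed past the threshold under these settings. The count of members ranked higher in tissue stayed at 7 with the sum or mean over transcripts and over all genes with a value in both tables, and with the sum Pcx differed by -0.53 points rather than -1.21. With FPKM + 1 in both terms, Pcx to Cs was 0.0250 rather than 0.0187 on day -3 and 0.106 rather than 0.0960 on day 0.

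Over all genes, a pseudocount of 5 gave 436 higher and 357 lower (main 1201 and 576) from day -3 to day 0, 383 and 532 (main 662 and 1146) from day 0 to day 2, 530 and 280 (main 1026 and 548) from day 2 to day 7, and 1243 and 1035 (main 2196 and 1597) over the whole course. The 1.5-fold rule gave 2480 and 1549, 1566 and 2252, 2048 and 1473, and 3441 and 2748. Scaling to a common total gave 1583 and 380 at the first step and moved the median of all genes over the whole course from 0.07 to 0.20. No library could be left out and no paired analysis was possible because each group has 1 library, and the cause of these shifts was not tested.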

Other observations

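The 2 forms of phosphoenolpyruvate carboxykinase, which draws oxaloacetate off toward glycerol and glucose, stood in opposite order in culture and tissue. Pck1, the cytosolic form, was at 0.019, 0.009, 0.028 and 1.20 FPKM on days -3, 0, 2 and 7 and at 714 RPKM in tissue, a rank difference of 96.9 points from day 7 to tissue. Pck2, the mitochondrial form, was at 38.0, 135, 97.8 and 106 FPKM and at 2.75 RPKM in tissue, a rank difference of -63.0 points. Among the pyruvate dehydrogenase kinases, Pdk1 was the highest on day 7 at 239 FPKM and stood at 28.9 RPKM in tissue, where Pdk4 was the highest at 465 RPKM. These are values of single libraries made in separate tables, and they were chosen after they were seen.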
